A study of Mus musculus with 8 samples.

Results

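Mouse embryonic stem (ES) cells were compared with mouse embryonic fibroblasts (MEF) across the genes of a single-colour Agilent array. The series holds 8 samples on Agilent and Affymetrix arrays, of which the Agilent samples titled ES and MEF are described here. The ES cells came from 129/Ola mice at the blastocyst stage, and the MEF came from embryos of a strain the labels do not give. No allele, transgene or treatment is given for either group, and no passage, growth condition or feeder layer is stated. Total RNA was prepared with Trizol and labelled with Cy3. Each group is 1 array, so no difference has a replicate error and no test was made. A probe was kept where the scanner software called its signal well above background on the ES array, the MEF array or both. This left 32088 of 41127 probes and 21831 of 27646 genes.

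ES cells are derived from the inner cell mass of the blastocyst and can give rise to all tissues of the embryo. Their identity rests on a network of transcription factors around Pou5f1, Nanog and Sox2, and they grow as tight epithelial colonies with a short first gap phase of the cell cycle. Embryonic fibroblasts are mesenchymal cells that build collagen-rich matrix, pull on it through actin stress fibres and respond to growth factors, cytokines and interferon. MEF preparations are taken from whole embryos and may hold several mesenchymal populations, and in bulk RNA fewer cells of a type and less RNA per cell cannot be told apart.

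Levels are log2 of the processed signal relative to the array's own 75th percentile, so 0 is the signal that 25% of spots exceed. Differences are ES minus MEF, and a fold is 2 to the power of that difference. A gene is represented by its brightest probe unless several probes are given. Where no other probe is mentioned, agreement between the probes of that gene is not implied. Where a probe was not well above background, or was saturated, on the array with the lower or higher signal, only a bound on the fold exists and it is written as "at least". Levels of different genes come from different probes and are not set against each other.

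The label of each array was checked against 4 defining markers before any other gene. Pou5f1, the POU factor required for pluripotency, was at 3.65 in ES cells and at -6.66 in MEF (1272-fold higher). Nanog, the homeobox factor of the same network, was at 4.25, saturated, in ES cells and at -3.96 in MEF (at least 297-fold higher). Dcn, the small matrix proteoglycan decorin, was at -3.19 in ES cells and at 4.59 in MEF (219.8-fold lower). Thy1, a surface glycoprotein of fibroblasts, was at 0.70 in ES cells and at 4.77 in MEF (16.9-fold lower). All 4 markers therefore lay on the side their label gives, and those with a second probe, Dcn and Thy1, gave the same direction on it. The second Dcn probe was not well above background in ES cells and at -0.43 in MEF (at least 25.9-fold lower), and the second Thy1 probe was at -3.64 in ES cells and 0.37 in MEF (16.2-fold lower).

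The markers were read by the probes whose first 30 of 60 bases follow, shown because the labels of both arrays rest on them. The brightest probe of each gene lies, on the mm7 build given in the MEF file, at chr17:33612047-33612107, + strand for Pou5f1, chr6:122750894-122750953, + strand for Nanog, chr10:97080086-97080145, + strand for Dcn and chr9:43982862-43982921, + strand for Thy1. Their place relative to exons was not looked up.
Pou5f1: aagtattgagtattcccaacgagaagagta
Nanog: cttctgagctctatttacaacttggtgtgt
Dcn: aacaccttcagatgtgtctatgtgcgttct
Thy1: cactgctacagcatctcaccgaggaaagaa

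**Figure D1:**
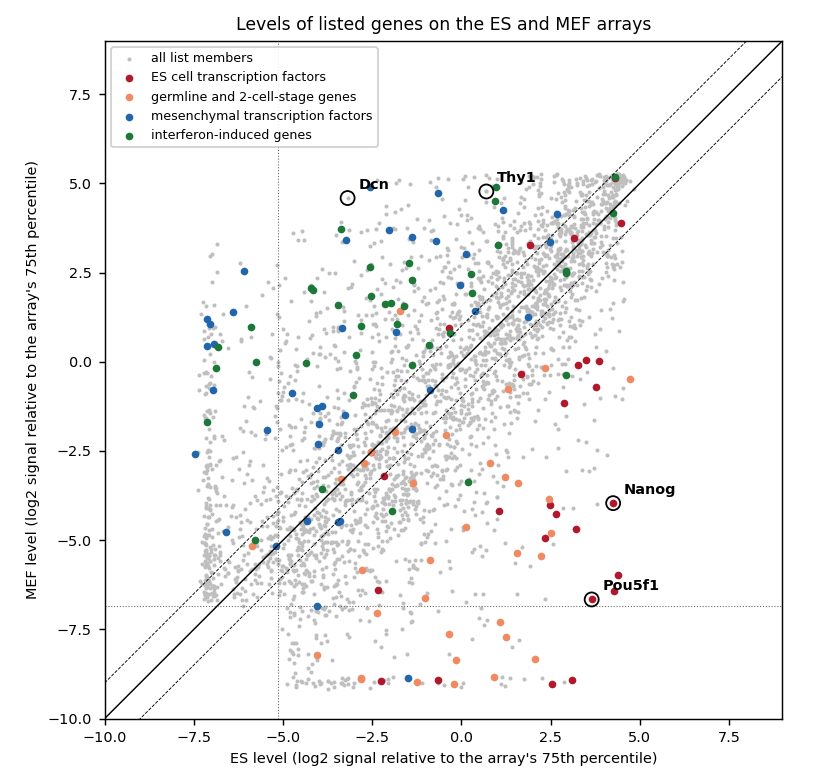
Level of each list member in ES cells (x axis) against MEF (y axis), both as log2 signal relative to the array's 75th percentile, with 4 gene lists coloured and the 4 markers circled. The solid line marks equal levels, the dashed lines a 2-fold difference and the dotted lines the lowest signal that was well above background on each array (-5.13 in ES cells and -6.85 in MEF). Pou5f1 and Nanog lie at the lower right and Dcn and Thy1 at the upper left.

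Between the arrays, 7235 genes lay at least 2-fold higher in ES cells and 5006 at least 2-fold lower, which is 33.1% and 22.9% of the genes above background. A further 8093 genes lay within 2-fold, and 1497 had no fold. In these both arrays were saturated, the array with the higher level was not well above background, or the bound did not reach past equality. Differences of 16-fold or more were found for 1073 genes on the ES side and 675 on the MEF side, and of 64-fold or more for 256 and 138. The median difference over the 20334 genes with a fold, bounds taken at their value, was 0.23. Over all 21831 genes, before bounds were applied, it was 0.14. Both arrays measured 17517 genes, 1411 were well above background in ES cells alone and 2903 in MEF alone.

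The balance of higher and lower genes depended on how the arrays were scaled. Of the genes past 2-fold, 59.1% were higher in ES cells with the 75th percentile, 55.2% after quantile normalisation, 53.8% after background correction with normexp and quantile normalisation, and 43.1% when the arrays were set to equal medians, which moved the median gene by -0.56. Under all 4 of these scalings, 4531 genes (20.8% of those above background) remained at least 2-fold higher in ES cells and 4376 (20%) at least 2-fold lower. Counts that held under all 4 scalings are therefore given beside each group of genes; that criterion was chosen after the data were seen. The shares of all genes given above are the background against which each list is to be read. The lists were written with earlier results of these arrays known, so the lean of a list describes its chosen members only.

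The 2 arrays also differed in scan and depth. The MEF array lay on another slide, was scanned on another day and was extracted with an older version of the scanner software, so slide, scan and cell type cannot be told apart. The shares of spots well above background were 66.9% in ES cells and 72.8% in MEF, and 564 and 520 spots were saturated. The highest scaled level was 4.86 in ES cells and 5.28 in MEF, so the brightest genes reach their ceiling at a lower level in ES cells. Repeated spots of one probe had an SD of 0.216 (log2) on the ES array and 0.137 on the MEF array, which covers spotting and scanning only. The median difference, before bounds were applied, ran with brightness. It was 0.56 and 0.79 in the 2 dimmest of 5 equal classes of genes and -0.50 in the brightest.

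**Figure D2:**
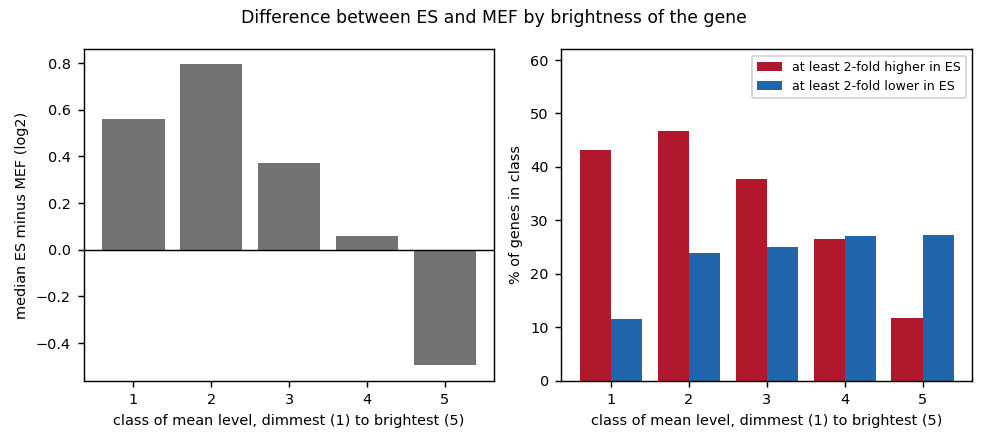
Genes in 5 classes of mean level (x axis of both panels), with the median difference between ES cells and MEF (log2, left panel) and the % of genes at least 2-fold higher (red) or lower (blue) in ES cells (right panel). Medians are taken before bounds are applied. The median lies at 0.79 in class 2 and at -0.50 in class 5, the brightest, where 11.7% of genes lay at least 2-fold higher in ES cells and 27.3% at least 2-fold lower.

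Markers of cells other than the 2 labelled ones were also measured. Of 14 macrophage and blood markers, 8 were well above background in ES cells and 13 in MEF, and their summed signals were 6.33 and 8.12 times the 75th percentile. Among them Tyrobp, an adaptor of myeloid receptors, was not well above background in ES cells and at 0.93 in MEF (at least 66.99-fold lower). Lyz2, the lysozyme of myeloid cells, was not well above background in ES cells and at 0.71 in MEF (at least 57.3-fold lower), and Adgre1, the F4/80 antigen of macrophages, not well above background in ES cells and at 0.59 in MEF (at least 45.4-fold lower). These myeloid genes were thus present on the MEF array and not measurable on the ES array, although Csf1r, the macrophage growth factor receptor, was at -2.38 in ES cells and at -1.77 in MEF (1.53-fold lower), and Ptprc, the CD45 antigen of blood cells, was not well above background in ES cells and at -3.44 in MEF (at least 3.23-fold lower).

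The other marker lists leaned in both directions. Endothelial markers stood 8 higher (5 under all 4 scalings) and 1 lower (1) of 12, with a median of 2.09, endoderm and trophoblast markers 9 higher (5 under all 4 scalings) and 2 lower (2) of 13, with a median of 2.10, neural markers 3 higher (2 under all 4 scalings) and 6 lower (5) of 14, with a median of -1.05, and muscle and cartilage markers 3 higher (3 under all 4 scalings) and 5 lower (4) of 11, with a median of 0.36. Kdr and Cdh5, which define endothelium, were not well above background in ES cells, and Cdh5 was the 1 lower member. Of the 8 higher members, Tek was at -2.05 in ES cells and not well above background in MEF (at least 27.9-fold higher). Robo4 was higher by at least 24.2-fold, Pecam1 by 10.5-fold and Egfl7 by 5.09-fold. Tfap2c, a factor of trophoblast and germ cells, was at 3.71 in ES cells and at -2.99 in MEF (104-fold higher). Eomes, a trophoblast and mesendoderm factor, was at -1.73 in ES cells and at -6.53 in MEF (27.98-fold higher). Gata4 and Gata6, which mark primitive endoderm, had brightest probes at 1.49 and 4.32 in ES cells and 0.35 and 4.50 in MEF. The part of other cells in the differences below was not tested.

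Transcription factors of ES cells were the list with the widest differences among the regulators. Of its members, 21 of 27 lay at least 2-fold higher in ES cells and 2 at least 2-fold lower, of which 20 and 1 held under all 4 scalings, and the median difference was 4.53. Sall4, a zinc finger factor of the pluripotency network, was at 4.27, saturated, in ES cells and at -6.43 in MEF (at least 1660.5-fold higher). Esrrb, an orphan nuclear receptor of naive ES cells, was at 4.39 in ES cells and at -5.97 in MEF (1310.5-fold higher). Nr5a2, a nuclear receptor that can act on the Pou5f1 gene, was at 3.10 in ES cells and not well above background in MEF (at least 989-fold higher), and Nr0b1, a receptor-like repressor, at 2.55 in ES cells and not well above background in MEF (at least 674-fold higher). The MEF side of each of these was at or near background, and the second probe of Sall4 and of Esrrb gave the same direction with smaller differences (2.17 and at least 10.70 for Sall4, 2.50 and 10.36 for Esrrb).

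Other members of the network followed. Tfcp2l1, a factor of the naive state, had 4 probes with differences of at least 3.83, 6.49, 7.88 and 8.11. Zfp42, known as Rex1, was at 2.65 in ES cells and at -4.25 in MEF (119.8-fold higher). Sox2, the partner of Pou5f1 on DNA, was at 2.87 in ES cells and at -1.16 in MEF (16.3-fold higher). Mycn, the Myc factor of early embryos, was at 2.48 in ES cells and at -4.01 in MEF (90.1-fold higher). Otx2, a factor of the formative epiblast, was at -2.26 in ES cells and not well above background in MEF (at least 24.1-fold higher). Members associated with both the naive and the formative state were thus higher in ES cells on these arrays.

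Some factors of the list did not separate the 2 cells. Klf4, a reprogramming factor that fibroblasts also express, was at 3.17 in ES cells and at 3.48 in MEF (1.24-fold lower). Tbx3, a T-box factor, was at 4.46, saturated, in ES cells and at 3.90 in MEF (at least 1.48-fold higher). Klf2 was saturated on both arrays on its brightest probe, which gives no fold, and its other probe had a difference of 3.58. Members on the MEF side were Gbx2, at -0.34 in ES cells and at 0.94 in MEF (2.43-fold lower), and Foxd3, at 1.93 in ES cells and at 3.29 in MEF (2.57-fold lower); the Foxd3 difference did not hold under all 4 scalings.

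Mesenchymal transcription factors ran the other way. Here 4 of 40 lay at least 2-fold higher in ES cells and 28 at least 2-fold lower, of which 1 and 26 held under all 4 scalings, and the median difference was -2.69. Runx2, the master factor of bone, was not well above background in ES cells and at 2.56 in MEF (at least 206-fold lower). Twist2, a basic helix-loop-helix factor of dermal mesenchyme, was at -2.56 in ES cells and at 4.90 in MEF (177-fold lower). Foxc2, a forkhead factor of paraxial mesoderm, was at -3.25 in ES cells and at 3.41 in MEF (101-fold lower). Tbx18, a T-box factor of somite and mural cells, was not well above background in ES cells and at 1.40 in MEF (at least 92.9-fold lower). Factors of epithelial-mesenchymal transition were also lower in ES cells, among them Snai2 at -0.71 in ES cells and 3.39 in MEF and Zeb2 at -0.67 and 4.74. Prrx1, a factor of limb mesenchyme, had 6 probes with differences of -5.96 or below, -5.03 or below, -3.10, -2.55, -2.44 or below and 1.05, so that 1 probe lay on the other side. The wide exception was Tbx20, a cardiac T-box factor, at -1.51 in ES cells and not well above background in MEF (at least 40.6-fold higher), on both of its probes.

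Hox genes, which give position along the body axis and are silent in ES cells, were low on the ES array. Of those above background, 2 of 37 lay at least 2-fold higher in ES cells and 20 at least 2-fold lower, of which 1 and 20 held under all 4 scalings, and the median difference was -2.48. Hoxd13, a gene of distal limb and genital tissue, was at -4.06 in ES cells and at 2.36 in MEF (85.6-fold lower). Hoxa9 was not well above background in ES cells and at 0.53 in MEF (at least 45.01-fold lower), and Hoxd9 was at -2.53 in ES cells and at 2.73 in MEF (38.4-fold lower). Hoxb2, a hindbrain and trunk gene, was not well above background in ES cells and at 0.01 in MEF (at least 35.3-fold lower). Only 1 of the 2 Hoxb2 probes lay past 2-fold. Genes of all 4 clusters, from the anterior Hoxb2 to the posterior Hoxd13, were thus above background in MEF. The exceptions past 2-fold were Hoxb13, at -0.44 in ES cells and at -3.03 in MEF (6.03-fold higher), and Hoxc5, at -2.07 in ES cells and at -3.75 in MEF (3.21-fold higher).

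Signal-regulated factors were mostly lower in ES cells. Among immediate early and AP-1 factors, 5 of 24 lay at least 2-fold higher in ES cells and 14 at least 2-fold lower, of which 2 and 14 held under all 4 scalings, and the median difference was -2.10. Jun, a subunit of AP-1, was at -3.54 in ES cells and at 2.49 in MEF (65.3-fold lower). Cebpd, a C/EBP factor of inflammation, was at -1.24 in ES cells and at 4.01 in MEF (38.1-fold lower). Maff and Mafk, small Maf proteins, were lower by 15.4-fold and 15.1-fold. Fosb, another AP-1 subunit, was on the other side, at 3.89 in ES cells and at 0.93 in MEF (7.75-fold higher). Of NF-kB and Stat factors, 2 of 22 lay at least 2-fold higher in ES cells and 13 at least 2-fold lower, of which 1 and 12 held under all 4 scalings, and the median difference was -1.41. Stat5a was at 1.66 in ES cells and at 4.61 in MEF (7.71-fold lower). Irf7, the interferon regulatory factor, was not well above background in ES cells and at -1.26 in MEF (at least 14.7-fold lower). The exceptions were Stat4, at 0.50 in ES cells and not well above background in MEF (at least 163-fold higher), and Stat6. Stat6 was at 2.77 in ES cells and at 1.35 in MEF (2.67-fold higher), with a difference of 0.86 under median scaling.

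Nuclear receptors divided. The list stood 14 higher (8 under all 4 scalings) and 11 lower (11) of 39, with a median of 0.46. Nr6a1, the germ cell nuclear factor, was at 1.01 in ES cells and at -3.37 in MEF (20.9-fold higher). Nr2f2, known as COUP-TFII, was at -1.82 in ES cells and at 5.02, saturated, in MEF (at least 115-fold lower), with 3 probes in the same direction. Esr1, the estrogen receptor, was not well above background in ES cells and at -0.72 in MEF (at least 21.3-fold lower).

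Zinc finger genes with a numbered Zfp name, many of which encode KRAB repressors of transposable elements, leaned to the ES side. Of them, 138 of 320 lay at least 2-fold higher in ES cells and 40 at least 2-fold lower, of which 95 and 33 held under all 4 scalings, and the median difference was 0.67. Zfp459 was at 0.37 in ES cells and at -6.50 in MEF (117-fold higher), Zfp874a was at 0.68 in ES cells and at -5.28 in MEF (62.3-fold higher) and Zfp819 was at -0.60 in ES cells and at -5.90 in MEF (39.3-fold higher). Zfp57, which keeps methylation at imprinted genes, was at 3.86 in ES cells and at 0.02 in MEF (14.3-fold higher). On the MEF side stood Zfp469, not well above background in ES cells and at 1.34 in MEF (at least 88.8-fold lower), which is linked to collagen and the cornea. A smaller family, the Klf factors, stood 9 higher (5 under all 4 scalings) and 2 lower (1) of 17, with a median of 1.19, with Klf5 at 3.50 in ES cells and at 0.06 in MEF (10.8-fold higher). Sox, Lim and Pax, forkhead, Gata and Tbx families held genes of both sides. Sox factors stood 8 higher (4 under all 4 scalings) and 6 lower (5) of 18, and Lim and Pax genes 6 higher (2) and 6 lower (5) of 17. More members were lower among forkhead factors, 7 higher (4) and 16 lower (12) of 36. The same held for Gata and Tbx factors, 3 higher (2) and 7 lower (7) of 15. Sox15 was at 1.23 in ES cells and at -5.08 in MEF (79.1-fold higher). Sox9, the factor of cartilage, was at -1.48 in ES cells and at 3.44 in MEF (30.1-fold lower). For Sox9, 2 of 3 probes lay past 2-fold. Lhx1 was at 3.79 in ES cells and at -2.48 in MEF (77.5-fold higher), while Lhx9 was not well above background in ES cells and at 0.50 in MEF (at least 49.6-fold lower).

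**Figure D3:**
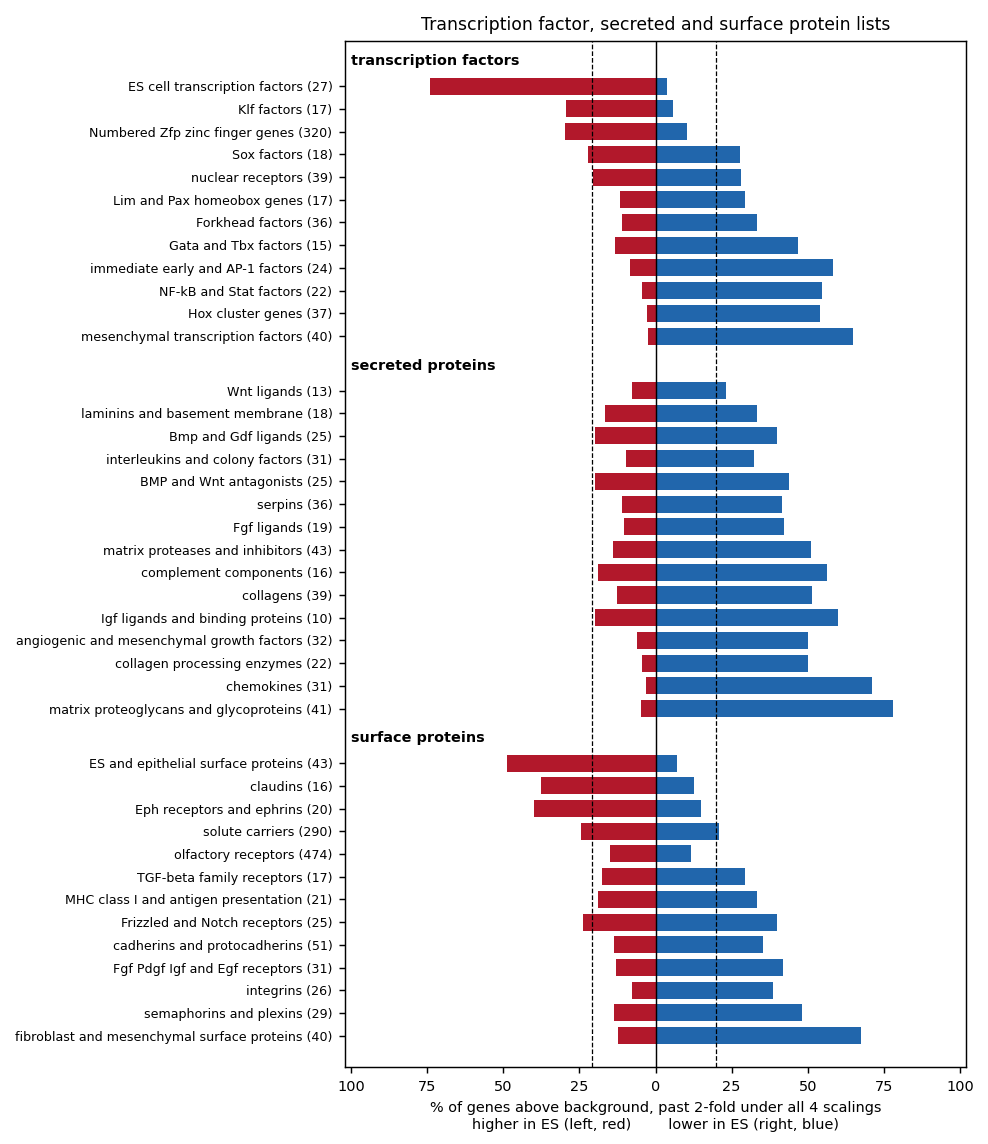
Share of each list's genes above background (x axis, %) that lay at least 2-fold higher in ES cells (red, left) or at least 2-fold lower in ES cells (blue, right) under all 4 scalings, for the lists of transcription factors, secreted proteins and surface proteins (y axis, with the number of genes above background). Dashed lines mark the shares of all genes, 20.8% and 20%. The longest red bar is that of ES cell transcription factors, with 20 of 27 genes, and the longest blue bar that of matrix proteoglycans and glycoproteins, with 32 of 41.

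Most lists of secreted proteins had more members lower than higher in ES cells. Of collagens, 10 of 39 lay at least 2-fold higher in ES cells and 22 at least 2-fold lower, of which 5 and 20 held under all 4 scalings, and the median difference was -1.77. Col1a1, the main chain of fibrillar collagen I, was at -2.40 in ES cells and at 3.72 in MEF (69.5-fold lower). Col5a2, a fibrillar chain that starts fibrils, was not well above background in ES cells and at 2.25 in MEF (at least 167-fold lower). Col6a2 was not well above background in ES cells and at 1.35 in MEF (at least 89.5-fold lower), and Col8a1 was at -2.82 in ES cells and at 3.65 in MEF (88.4-fold lower). Chains of fibrillar, beaded and short-chain collagens were thus among those lower in ES cells. Col13a1, a transmembrane collagen, was on the other side, at 2.34 in ES cells and at -6.64 in MEF (505-fold higher), but its second probe had a difference of -0.31 or below.

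Matrix proteoglycans and glycoproteins were more uniform, with 4 of 41 at least 2-fold higher in ES cells and 33 at least 2-fold lower (2 and 32 under all 4 scalings) and a median of -3.19. Fbln5, an elastic fibre protein, was not well above background in ES cells and at 3.01 in MEF (at least 283-fold lower). Only 1 of the 2 Fbln5 probes lay past 2-fold. Tnc, tenascin C, was at -4.58 in ES cells and at 3.42 in MEF (256-fold lower). Ccn5, a matricellular protein, was not well above background in ES cells and at 2.51 in MEF (at least 199-fold lower). Lum, the proteoglycan lumican, was at -3.35 in ES cells and at 3.35 in MEF (104-fold lower), and Fbn1, the fibrillin of microfibrils, not well above background in ES cells and at 2.34 in MEF (at least 154-fold lower). Omd, osteomodulin, was an exception, at 0.40 in ES cells and at -3.66 in MEF (16.7-fold higher).

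Enzymes that build and cut matrix also had more members lower than higher in ES cells. Collagen processing enzymes stood 2 higher (1 under all 4 scalings) and 12 lower (11) of 22, with a median of -1.21. Lox, which crosslinks collagen and elastin, was at -3.37 in ES cells and at 3.93 in MEF (158-fold lower). Serpinh1, the collagen chaperone, was at 0.70 in ES cells and at 4.47 in MEF (13.7-fold lower). Of matrix proteases and inhibitors, 8 of 43 lay at least 2-fold higher in ES cells and 23 at least 2-fold lower, of which 6 and 22 held under all 4 scalings, and the median difference was -1.27. Mmp13, a collagenase, was at -4.46 in ES cells and at 3.65 in MEF (277-fold lower). Mmp3, stromelysin, was at -1.45 in ES cells and at 4.98 in MEF (86.04-fold lower). Timp2, an inhibitor of these proteases, was at -1.70 in ES cells and at 4.28 in MEF (63.2-fold lower). Proteases and inhibitors were thus both among the genes lower in ES cells. Serpins divided, 13 higher (4 under all 4 scalings) and 15 lower (15) of 36, with a median of -0.24, with Serpinf1 at -2.12 in ES cells and at 4.38 in MEF (90.7-fold lower).

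Basement membrane genes split by chain. Lama1, the laminin chain of the early embryo, was at 1.10 in ES cells and not well above background in MEF (at least 247-fold higher). Nid2 was at 0.58 in ES cells and at -4.21 in MEF (27.7-fold higher). Lama4, the laminin chain of mesenchymal and vascular tissue, was at -3.0 in ES cells and at 2.82 in MEF (56.5-fold lower), and Nid1 was at 2.18 in ES cells and at 4.69 in MEF (5.69-fold lower). The list as a whole stood 4 higher (3 under all 4 scalings) and 7 lower (6) of 18, with a median of -0.29.

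Among ligands, members of the Nodal branch stood on the ES side. Gdf3, a ligand of pluripotent cells, was at 2.26 in ES cells and not well above background in MEF (at least 552-fold higher). Nodal was at 2.95 in ES cells and at -3.06 in MEF (64.2-fold higher). Lefty1 and Lefty2, which restrain Nodal, were higher in ES cells by 4.51-fold and 9.68-fold. Tgfb2 was at -4.42 in ES cells and at 3.43 in MEF (229.7-fold lower), and Tgfb1 not well above background in ES cells and at 2.17 in MEF (at least 155-fold lower); these act on fibroblasts to raise matrix. Bmp and Gdf ligands in all stood 7 higher (5 under all 4 scalings) and 12 lower (10) of 25, with a median of -0.82.

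Extracellular antagonists and growth factors also divided by member. Rspo3, which enhances Wnt signalling, was not well above background in ES cells and at 2.77 in MEF (at least 239.8-fold lower). Grem1, a BMP antagonist, was at -3.16 in ES cells and at 3.69 in MEF (115-fold lower). Nog, another BMP antagonist, was on the ES side, at -1.13 in ES cells and at -5.07 in MEF (15.3-fold higher). Fgf7 and Fgf10, ligands that mesenchyme sends to epithelium, were lower in ES cells by 36.00-fold and 7.01-fold. Fgf15 was at -3.66 in ES cells and not well above background in MEF (at least 9.11-fold higher). Igf2, the imprinted fetal growth factor, was at -2.31 in ES cells and at 3.90 in MEF (74.03-fold lower) on its brightest probe, and its second probe gave a difference of -6.06. Bdnf, a neurotrophin, was at -3.51 in ES cells and at 3.56 in MEF (134-fold lower). Vegfa, the vascular growth factor, was at 2.14 in ES cells and at -0.60 in MEF (6.65-fold higher), but its probes disagreed, with differences of -0.97 and 2.73.

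Chemokines were mostly lower in ES cells. Of those above background, 3 of 31 lay at least 2-fold higher in ES cells and 22 at least 2-fold lower, of which 1 and 22 held under all 4 scalings, and the median difference was -2.09. Ccl9 was not well above background in ES cells and at 2.98 in MEF (at least 276-fold lower). Cxcl12, the stromal chemokine that holds blood stem cells in the marrow, was not well above background in ES cells and at 2.71 in MEF (at least 229.9-fold lower). Ccl8 was not well above background in ES cells and at 2.06 in MEF (at least 146-fold lower), and Cxcl2 was not well above background in ES cells and at 1.57 in MEF (at least 104-fold lower). These are ligands of myeloid and lymphoid cells, and the myeloid markers given above were also higher in MEF, whose part in this group was not tested. Interleukins and colony factors were mixed, 9 higher (3 under all 4 scalings) and 10 lower (10) of 31, with a median of -0.33. Il1rn, the interleukin 1 receptor antagonist, was not well above background in ES cells and at 3.31 in MEF (at least 347-fold lower). Il6 was not well above background in ES cells and at 0.71 in MEF (at least 57.3-fold lower). Il1a stood on the ES side, at -0.48 in ES cells and not well above background in MEF (at least 82.8-fold higher).

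The surface protein lists named for epithelial and for mesenchymal cells leaned to opposite sides. Both were written with earlier results of these arrays known, so this describes their members and is no independent check. Of the ES and epithelial list, 26 of 43 lay at least 2-fold higher in ES cells and 4 at least 2-fold lower, of which 21 and 3 held under all 4 scalings, and the median difference was 2.21. Cdh1, E-cadherin, which holds ES colonies together, was at 1.74 in ES cells and not well above background in MEF (at least 386-fold higher). Cldn7 and Cldn6, tight junction claudins, were at 1.36 in ES cells and not well above background in MEF (at least 296-fold higher) and at 2.86 in ES cells and at -4.10 in MEF (125-fold higher). Alpl, the alkaline phosphatase used to stain ES colonies, was at 1.13 in ES cells and not well above background in MEF (at least 252-fold higher). Tdgf1, the Nodal co-receptor Cripto, was at 3.79 in ES cells and at -3.98 in MEF (219-fold higher). Keratin Krt8 and the adhesion protein Epcam were higher in ES cells by 149-fold and 42.1-fold. Claudins as a family stood 9 higher (6 under all 4 scalings) and 2 lower (2) of 16, with a median of 1.91. Pkp1, a plakophilin of desmosomes, was on the MEF side, not well above background in ES cells and at -0.79 in MEF (at least 20.3-fold lower).

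Fibroblast and mesenchymal surface proteins were the counterpart, with 5 of 40 at least 2-fold higher in ES cells, 31 at least 2-fold lower (5 and 27 under all 4 scalings) and a median of -3.23. Gpc6, a glypican, was not well above background in ES cells and at 1.88 in MEF (at least 129-fold lower). Pdgfrb, a PDGF receptor of mesenchymal cells, was at -1.86 in ES cells and at 3.71 in MEF (47.5-fold lower). Mrc2, which takes up collagen, was at -1.93 in ES cells and at 3.74 in MEF (50.8-fold lower). Only 1 of the 2 Mrc2 probes lay past 2-fold. Cdh2, N-cadherin, was at -0.49 in ES cells and at 4.08 in MEF (23.7-fold lower), opposite to Cdh1. Cdh11, a mesenchymal cadherin, was at -0.72 in ES cells and at 4.90 in MEF (48.9-fold lower) on its brightest probe, with probes at -5.91, -5.61 and 1.22; after quantile normalisation the probe on the other side was the brightest, with a difference of 1.53. Dpp4, a peptidase of the cell surface, was an exception, at 1.01 in ES cells and at -2.90 in MEF (15.1-fold higher), and so was Mcam, whose 2 probes pointed in opposite directions (-4.30 and 2.90).

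Receptors for growth factors had members on both sides, with more lower than higher in ES cells. The list of Fgf, Pdgf, Igf and Egf receptors also holds Osmr and Kit. It stood 7 higher (4 under all 4 scalings) and 13 lower (13) of 31, with a median of -0.61. Osmr, the oncostatin M receptor, was not well above background in ES cells and at 2.22 in MEF (at least 164-fold lower). Only 1 of the 2 Osmr probes lay past 2-fold. Fgfr1 was at -2.12 in ES cells and at 4.14 in MEF (76.6-fold lower), with all 4 probes in the same direction. Egfr was at -1.50 in ES cells and at 4.40 in MEF (59.96-fold lower), with all 5 probes in the same direction. Erbb3, an EGF receptor relative, was at 0.31 in ES cells and at -5.33 in MEF (49.8-fold higher). For Erbb3, 3 of 5 probes lay past 2-fold in this direction and 0 in the other. Kit, the stem cell factor receptor of germ cells, was at -1.65 in ES cells and not well above background in MEF (at least 34.5-fold higher). Of Wnt and Notch receptors, Fzd2 was at -2.55 in ES cells and at 1.72 in MEF (19.3-fold lower) and Fzd1 at -2.45 in ES cells and at 1.57 in MEF (16.2-fold lower), while Notch4 was at 0.64 in ES cells and not well above background in MEF (at least 179-fold higher).

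Eph receptors and ephrins leaned to the ES side, 10 higher (8 under all 4 scalings) and 3 lower (3) of 20, with a median of 1.36. Efnb3 was at -0.27 in ES cells and at -6.43 in MEF (71.6-fold higher), whereas Efna5 was at -3.08 in ES cells and at 2.17 in MEF (38.02-fold lower) and Efnb2 at -0.92 in ES cells and at 3.97 in MEF (29.8-fold lower). Semaphorins and plexins leaned to the MEF side, 7 higher (4 under all 4 scalings) and 14 lower (14) of 29, with a median of -1.05. Their receptor Nrp1, neuropilin 1, was not well above background in ES cells and at 0.34 in MEF (at least 43.1-fold lower). Integrins stood 7 higher (2 under all 4 scalings) and 11 lower (10) of 26, with a median of -0.37, with the collagen-binding Itga2 not well above background in ES cells and at 0.05 in MEF (at least 36.3-fold lower) and Itgb5 at -0.92 in ES cells and at 2.87 in MEF (13.8-fold lower). Integrin Itgax, which marks dendritic cells, was not well above background in ES cells and at 0.58 in MEF (at least 52.5-fold lower).

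Genes of antigen presentation lay on both sides, with more lower than higher in ES cells. B2m, the light chain of class I, was at 0.77 in ES cells and at 5.15, saturated, in MEF (at least 20.8-fold lower), with 3 probes in the same direction. H2-D1, a class I heavy chain, was at 0.48 in ES cells and at 3.76 in MEF (9.74-fold lower); this family shares sequence, so its probes may read several members. Erap1, which trims peptides for class I, was at -3.47 in ES cells and at 0.01 in MEF (11.2-fold lower). The list as a whole stood 4 higher (4 under all 4 scalings) and 8 lower (7) of 21, with a median of -0.69, and 9 lay within 2-fold; H2-T24 was at -1.71 in ES cells and at -4.15 in MEF (5.42-fold higher), and H2-M3 was also on the ES side, at -0.91 in ES cells and at -4.19 in MEF (9.71-fold higher).

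Metabolic lists had members on both sides. Of glycolytic genes, 7 of 23 lay at least 2-fold higher in ES cells and 3 at least 2-fold lower, of which 4 and 2 held under all 4 scalings, and the median difference was 0.20. Slc2a3, a glucose transporter of early embryos, was at 4.52, saturated, in ES cells and at -0.73 in MEF (at least 38.1-fold higher). Aldoc, an aldolase, was at 0.22 in ES cells and at -3.28 in MEF (11.3-fold higher). Pfkfb3, which sets the level of an activator of glycolysis, was at 1.47 in ES cells and at 3.95 in MEF (5.58-fold lower). Ldha, Aldoa, Pgam1 and Slc2a1 were saturated on their brightest probe and gave no fold, so these could not be compared there.

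Mitochondrial lists had most of their members within 2-fold. Tricarboxylic acid cycle genes had 22 of 33 within 2-fold and respiratory chain genes 55 of 85, against 8093 of 21831 genes in all. Idh2, the mitochondrial isocitrate dehydrogenase, was at -0.29 in ES cells and at -4.70 in MEF (21.3-fold higher). Idh1, its cytosolic relative, was at -1.51 in ES cells and at -3.70 in MEF (4.57-fold higher). Ndufv2, a subunit of complex I, was at 1.51 in ES cells and at -1.38 in MEF (7.44-fold higher). Cox7b2 and Cox8c, subunits of complex IV known from testis, were at -1.10 in ES cells and not well above background in MEF (at least 53.9-fold higher) and at -3.29 in ES cells and not well above background in MEF (at least 11.8-fold higher). Atp5j2, a subunit of ATP synthase, was at 0.01 in ES cells and at 2.93 in MEF (7.55-fold lower).

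Threonine, glycine and one-carbon genes were the metabolic list with the widest ES differences. Here 11 of 25 lay at least 2-fold higher in ES cells and 4 at least 2-fold lower, of which 8 and 4 held under all 4 scalings, and the median difference was 0.95. Gldc, the glycine decarboxylase, was at 1.61 in ES cells and not well above background in MEF (at least 353-fold higher). Gcat, which follows threonine dehydrogenase, was at 0.52 in ES cells and at -5.18 in MEF (51.9-fold higher). Shmt1, a serine hydroxymethyltransferase, was at 0.35 in ES cells and at -5.24 in MEF (48.2-fold higher). Only 1 of the 2 Shmt1 probes lay past 2-fold. Tdh, the threonine dehydrogenase on which mouse ES cells depend, was at 4.10 in ES cells and at 2.41 in MEF (3.22-fold higher). Phgdh, the first enzyme of serine synthesis, was at 3.24 in ES cells and at 4.95 in MEF (3.27-fold lower).

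Nucleotide, lipid and sterol synthesis lay near the median of all genes, with list medians of 0.59, 0.03 and 0.29. Hprt, the purine salvage enzyme, was at 0.04 in ES cells and at 5.11, saturated, in MEF (at least 33.6-fold lower). Dhodh, of pyrimidine synthesis, was at -0.52 in ES cells and at -3.27 in MEF (6.74-fold higher). Acacb, an acetyl-CoA carboxylase, was at 1.24 in ES cells and at -2.47 in MEF (13.1-fold higher), but its other probe had a difference of -0.74. Fads3, a desaturase relative, was at -4.42 in ES cells and at 1.95 in MEF (82.9-fold lower), and Plin2, a lipid droplet coat, at 0.15 in ES cells and at 3.96 in MEF (14.03-fold lower).

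Lysosomal enzymes were the metabolic list with the most members on the MEF side: 3 of 40 lay at least 2-fold higher in ES cells and 26 at least 2-fold lower, of which 3 and 26 held under all 4 scalings, and the median difference was -1.60. Ctsk, a collagen-degrading cathepsin, was at -3.29 in ES cells and at 1.14 in MEF (21.6-fold lower). Arsb, a sulfatase, was not well above background in ES cells and at 0.22 in MEF (at least 40.7-fold lower). Ctsh was at -2.15 in ES cells and at 1.21 in MEF (10.3-fold lower). Manba, a mannosidase, was an exception on both of its measured probes, at 0.90 in ES cells and at -4.71 in MEF (48.98-fold higher). Macrophages are rich in lysosomes, and the part of the myeloid markers in this list was not tested.

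Redox, prostaglandin and retinoid lists had more members lower than higher in ES cells. Glutathione and redox genes stood 2 higher (2 under all 4 scalings) and 17 lower (13) of 39, with a median of -0.92. Of the redox genes, 19 lay within 2-fold, and Gsta3, a glutathione transferase, was at -1.68 in ES cells and not well above background in MEF (at least 36.1-fold higher). Sod3, the extracellular superoxide dismutase, was not well above background in ES cells and at 1.69 in MEF (at least 113-fold lower). Mgst1, a membrane glutathione transferase, was at -1.61 in ES cells and at 2.81 in MEF (21.4-fold lower). Prostaglandin and retinoid genes stood 4 higher (3 under all 4 scalings) and 13 lower (13) of 25, with a median of -1.40. Ptgs1, a cyclooxygenase, was at 0.15 in ES cells and at 4.10 in MEF (15.5-fold lower). Dhrs3, which reduces retinal, was at -0.78 in ES cells and at 3.70 in MEF (22.4-fold lower). Stra6, a retinol receptor, was on the ES side, at 2.49 in ES cells and at -0.37 in MEF (7.28-fold higher).

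Transporters divided. Amino acid transporters stood 8 higher (8 under all 4 scalings) and 9 lower (7) of 25, with a median of 0.04. Slc38a5 was at 0.05 in ES cells and not well above background in MEF (at least 119.5-fold higher) and Slc7a7 was at 3.89 in ES cells and at -1.03 in MEF (30.2-fold higher), while Slc7a8 was at -1.56 in ES cells and at 1.58 in MEF (8.86-fold lower). Over the 290 solute carriers above background, 102 lay 2-fold or more above MEF and 64 2-fold or more below, which is 35.2% and 22.1% and near the shares of all genes. Slc15a2, a peptide transporter, was at 1.23 in ES cells and not well above background in MEF (at least 271-fold higher). Slc24a3, a sodium-calcium exchanger, was not well above background in ES cells and at 1.60 in MEF (at least 106-fold lower).

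**Figure D4:**
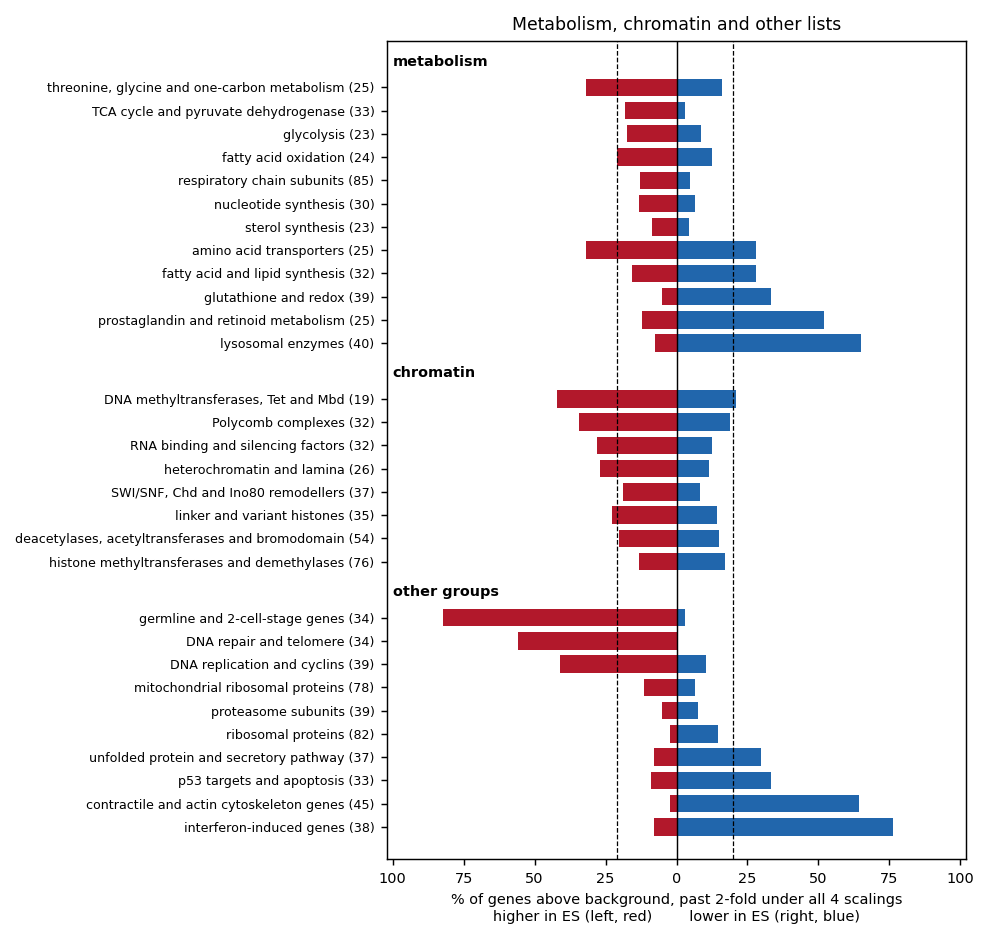
Share of each list's genes above background (x axis, %) that lay at least 2-fold higher in ES cells (red, left) or at least 2-fold lower in ES cells (blue, right) under all 4 scalings, for lists of metabolism, chromatin and other groups (y axis, with the number of genes above background). Dashed lines mark the shares of all genes, 20.8% and 20%. Germline and 2-cell-stage genes reach 28 of 34 on the left, and interferon-induced genes 29 of 38 and lysosomal enzymes 26 of 40 on the right.

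Chromatin genes held individual members with wide differences. Of DNA methyltransferases, Tet and Mbd proteins, 9 of 19 lay at least 2-fold higher in ES cells and 5 at least 2-fold lower, of which 8 and 4 held under all 4 scalings, and the median difference was 0.89. Dnmt3b, a methyltransferase that sets new methylation, was at -0.65 in ES cells and not well above background in MEF (at least 73.3-fold higher). Dnmt3l, its cofactor, was at 3.33 in ES cells and at -0.48 in MEF (14.02-fold higher). Tet1, which oxidises methylcytosine, was at 2.93 in ES cells and at -1.52 in MEF (21.9-fold higher). Dppa3, known as Stella, was at -2.36 in ES cells and not well above background in MEF (at least 22.5-fold higher). Dnmt1, which copies methylation, lay within 2-fold, at -1.13 in ES cells and -1.44 in MEF. Tet2, Tet3 and Dnmt3a also lay within 2-fold. By their brightest probes, Mbd2 and Mbd4 were at least 2-fold higher in ES cells, while Mbd1, Mbd3, Uhrf2 and Zbtb38 were among those at least 2-fold lower.

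Polycomb genes held members on both sides. Of them, 15 of 32 lay at least 2-fold higher in ES cells and 6 at least 2-fold lower, of which 11 and 6 held under all 4 scalings, and the median difference was 0.89. Pcgf2, a PRC1 subunit also named Mel18, was at 1.57 in ES cells and at -6.51 in MEF (270.0-fold higher). Cbx7, the chromobox protein of ES cells, was at 0.56 in ES cells and at -5.44 in MEF (64.1-fold higher). Bmi1, a PRC1 subunit related to Pcgf2, was at -4.63 in ES cells and at 0.37 in MEF (32.1-fold lower) on its brightest probe, but its other probe had a difference of 2.78. Cbx8 was at -4.61 in ES cells and at -0.13 in MEF (22.5-fold lower) on its brightest probe, with a bound of -0.06 or below on the other. Ezh2, the methyltransferase of PRC2, was at 1.09 in ES cells and at -1.28 in MEF (5.16-fold higher). Jarid2 and Mtf2, PRC2 cofactors, were higher in ES cells on each of their probes (at least 2.29, 4.86 and at least 5.71 for Jarid2, 2.30, at least 2.80, 2.95 and 3.99 for Mtf2). Suz12 and Eed, the PRC2 core, lay within 2-fold.

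Remodellers and histone enzymes were closer to the background. Remodellers stood 11 higher (7 under all 4 scalings) and 6 lower (3) of 37, with a median of 0.53. Smarca2, the Brm ATPase, was at -1.36 in ES cells and at 3.36 in MEF (26.5-fold lower), while Smarca4, the Brg1 ATPase of the same complex, lay within 2-fold at 2.79 in ES cells and 3.01 in MEF. Smarcd1 was at -1.30 in ES cells and at -5.56 in MEF (19.19-fold higher). Histone methyltransferases and demethylases stood 17 higher (10 under all 4 scalings) and 16 lower (13) of 76, with a median of -0.03. Setdb1, an H3K9 methyltransferase, was at -2.11 in ES cells and at -4.74 in MEF (6.21-fold higher). Setd7 was at 1.13 in ES cells and at 4.03 in MEF (7.45-fold lower). Deacetylases, acetyltransferases and bromodomain proteins stood 17 higher (11 under all 4 scalings) and 13 lower (8) of 54, with a median of 0.22, with Sirt1 at 1.32 in ES cells and at -2.67 in MEF (15.8-fold higher) and Hdac7 at -2.39 in ES cells and at 1.0 in MEF (10.5-fold lower).

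Histone and lamina genes showed a few wide differences. H1f4, a linker histone, was at 0.71 in ES cells and not well above background in MEF (at least 188-fold higher). Hira, a chaperone of histone H3.3, was at 1.93 in ES cells and at -5.73 in MEF (202-fold higher). Hmga2, an architectural protein of mesenchyme, was at 1.67 in ES cells and at 5.04, saturated, in MEF (at least 10.3-fold lower). Nup210, a nuclear pore protein, was at 3.57 in ES cells and at -3.07 in MEF (99.9-fold higher). Lmna, which encodes lamins A and C, was at 1.76 in ES cells and at 3.90 in MEF (4.397-fold lower), with 3 probes in the same direction, while Lbr, the lamin B receptor, was at 3.91 in ES cells and at 1.45 in MEF (5.48-fold higher). The lamina list stood 12 higher (7 under all 4 scalings) and 4 lower (3) of 26, with a median of 0.96. Xist, the RNA of the inactive X chromosome, had 4 probes that disagreed, with differences of -2.35 or below, -1.69, 0.31 and 2.61.

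RNA-binding factors included some of the widest ES differences. Lin28a, which blocks maturation of let-7, was at 2.87 in ES cells and not well above background in MEF (at least 844-fold higher). Lin28b was at 0.13 in ES cells and not well above background in MEF (at least 116-fold higher). Mbnl1, a splicing factor of differentiated cells, was at 0.92 in ES cells and at 4.33 in MEF (10.6-fold lower), with 3 probes at -3.41, -3.01 and -1.03 or below. Celf2, another splicing factor, was at 0.30 in ES cells and at 3.34 in MEF (8.23-fold lower) on its brightest probe, with probes at -3.04, -1.41 or below, 0.15, 1.71 and at least 4.43.

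Germline and 2-cell-stage genes had a median of 4.67, above that of ES cell transcription factors here and with median scaling but below it after quantile normalisation (4.19 against 4.42) and with normexp (3.46 against 4.20). Of them, 28 of 34 were at least 2-fold higher in ES cells and 1 at least 2-fold lower, all of them under all 4 scalings. Dppa4, a chromatin factor of pluripotent and germ cells, was at 2.05 in ES cells and not well above background in MEF (at least 479-fold higher). Mael, of the piRNA pathway, was at 1.26 in ES cells and not well above background in MEF (at least 277-fold higher). Ooep, an egg protein, was at 1.09 in ES cells and not well above background in MEF (at least 245-fold higher). Tex19.1, a protein of germ cells and placenta, was at 0.91 in ES cells and not well above background in MEF (at least 217-fold higher). Zscan4c, of the 2-cell-like state, was at 2.52 in ES cells and at -4.79 in MEF (159-fold higher). Sycp3, of the meiotic chromosome axis, was at -0.87 in ES cells and at -5.54 in MEF (25.5-fold higher). Dazl, a germ cell RNA-binding protein, was the member on the other side by its brightest probe, at -1.71 in ES cells and at 1.41 in MEF (8.73-fold lower), and its other probe had a difference of at least 6.76 in the opposite direction.

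Promoters of the germline list, 250 bases before to 50 after the start in RefSeq (GRCm38.p6), were searched for the E-box CACGTG, which several germline repressors bind. It was found in 9 of 21 promoters (42.9%), against 9.32% of the 13205 promoters of genes above background and 7.24% of all 27025 promoters in the table. The E-box was in 8.79% of promoters of genes higher in ES cells under all 4 scalings. For each list 8 motifs were searched (octamer, AP-1, E-box, TATA, CCAAT and GC boxes, interferon response element and CArG box), and the motif shown with a list was picked after its shares were seen. Other motifs were also more frequent than in all genes. The AP-1 site TGANTCA, on either strand, was in 23.8% of germline, 26.7% of interferon-induced and 15.4% of contractile promoters, against 6.03% of genes above background. The TATA box was in 19.0%, 26.7% and 23.1% of the same 3 lists, against 9.91%. A match is a string of letters and says nothing of binding. The stretches around it in 5 promoters follow, with the E-box in capitals, for genes at least 2-fold higher in ES cells; it starts 64, 55, 223, 11 and 57 bases before the gene start.
Sycp3 promoter, chr10:88459498-88459553, + strand: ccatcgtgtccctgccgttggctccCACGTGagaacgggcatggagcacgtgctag
Stk31 promoter, chr6:49395459-49395514, + strand: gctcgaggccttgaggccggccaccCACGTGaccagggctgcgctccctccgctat
Mael promoter, chr1:166238937-166238992, - strand: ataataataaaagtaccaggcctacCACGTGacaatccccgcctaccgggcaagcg
Tdrd1 promoter, chr19:56826173-56826208, + strand: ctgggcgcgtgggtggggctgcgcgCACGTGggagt
Hormad1 promoter, chr3:95559595-95559650, + strand: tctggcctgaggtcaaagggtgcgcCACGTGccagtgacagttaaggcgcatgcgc

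Replication and repair lists had more members higher than lower in ES cells. Replication genes and cyclins stood 22 higher (16 under all 4 scalings) and 5 lower (4) of 39, with a median of 1.17. Orc1, of the origin recognition complex, was at -1.38 in ES cells and not well above background in MEF (at least 44.4-fold higher). Mcm2, of the replicative helicase, was at 3.19 in ES cells and at 0.57 in MEF (6.13-fold higher). Ccnd2, a D-type cyclin of the first gap phase, was at 0.00 in ES cells and at 4.12 in MEF (17.4-fold lower), with 3 probes in the same direction, and Cdk6, its kinase, was at -1.86 in ES cells and at 0.66 in MEF (5.74-fold lower) on its brightest probe with another probe at 3.38. Ccne1, the cyclin of S phase entry, was at 2.07 in ES cells and at 0.25 in MEF (3.54-fold higher).

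DNA repair and telomere genes had 24 of 34 at least 2-fold higher in ES cells (19 under all 4 scalings) and 0 at least 2-fold lower, with a median of 1.91. Fanci and Fancd2, a pair of the Fanconi pathway, were at 2.38 in ES cells and at -2.67 in MEF (33.2-fold higher) and at 1.72 in ES cells and at -2.68 in MEF (21.2-fold higher). Chek1 and Chek2, the checkpoint kinases, were higher in ES cells by 24.98-fold and 26.4-fold, each on both probes. Brca1 and Brca2 were higher by 19.21-fold and 11.3-fold, each on both probes. Tert, the telomerase protein, was at -3.82 in ES cells and at -4.81 in MEF (1.98-fold higher), within 2-fold.

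Targets of p53 and apoptosis genes leaned to the MEF side, 6 higher (3 under all 4 scalings) and 15 lower (11) of 33, with a median of -0.57. Fas, a death receptor, was not well above background in ES cells and at -0.01 in MEF (at least 34.7-fold lower). Only 1 of the 2 Fas probes lay past 2-fold. Casp4, an inflammatory caspase, was at -1.05 in ES cells and at 3.76 in MEF (28.1-fold lower). Cdkn1a, the p21 inhibitor of cyclin-dependent kinases, was at 1.40 in ES cells and at 3.46 in MEF (4.16-fold lower). Trp53 itself lay within 2-fold, at 3.37 in ES cells and 3.66 in MEF.

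Interferon-induced genes were low in ES cells, with 3 of 38 2-fold or more above MEF and 29 2-fold or more below, all under all 4 scalings, and a median of -3.46. Ifi44 was at -3.38 in ES cells and at 3.72 in MEF (137-fold lower). Ifit3, which binds foreign RNA, was at -4.16 in ES cells and at 2.02 in MEF (72.6-fold lower). Ifi203 was at -4.22 in ES cells and at 2.06 in MEF (77.7-fold lower), and Iigp1, an immunity GTPase, was not well above background in ES cells and at 0.97 in MEF (at least 68.6-fold lower). Sensors of viral RNA were among them, with Ifih1 at -3.46 in ES cells and at 1.59 in MEF (33.00-fold lower). Ifitm1, a membrane protein of germ and pluripotent cells, stood on the ES side, at 2.93 in ES cells and at -0.38 in MEF (9.93-fold higher), as did Oas2, at 0.20 in ES cells and at -3.37 in MEF (11.8-fold higher), on both probes. The myeloid markers moved with this list, and their part in it was not tested.

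The interferon response element, GAAANNGAAA on either strand, was found in 18 of 30 promoters of the list (60%), against 3.14% of promoters of genes above background and 3.49% of all promoters. Stretches around it follow, with the element in capitals, for 5 genes at least 2-fold lower in ES cells. It starts 104, 156, 120, 130 and 59 bases before the gene start. The promoters of this list were also poor in CpG, with a median observed to expected ratio of 0.26, against 0.70 over all genes above background.
Ifit1 promoter, chr19:34640760-34640819, + strand: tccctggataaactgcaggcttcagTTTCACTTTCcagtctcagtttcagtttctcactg
Ifit3 promoter, chr19:34583348-34583407, + strand: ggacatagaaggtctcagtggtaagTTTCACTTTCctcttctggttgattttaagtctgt
Rsad2 promoter, chr12:26456538-26456597, - strand: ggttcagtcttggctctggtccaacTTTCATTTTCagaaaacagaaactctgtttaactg
Bst2 promoter, chr8:71537568-71537627, - strand: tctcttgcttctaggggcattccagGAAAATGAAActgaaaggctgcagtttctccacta
Gbp2 promoter, chr3:142620579-142620638, + strand: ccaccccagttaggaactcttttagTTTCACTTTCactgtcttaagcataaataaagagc

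Contractile and actin cytoskeleton genes were lower in ES cells: 1 of 45 lay at least 2-fold higher in ES cells and 33 at least 2-fold lower, of which 1 and 29 held under all 4 scalings, and the median difference was -1.98. Cav1, of caveolae, was at -1.74 in ES cells and at 5.10, saturated, in MEF (at least 114-fold lower). Myl9, a myosin light chain, was at 0.69 in ES cells and at 5.24, saturated, in MEF (at least 23.3-fold lower). Tpm2, a tropomyosin, was at -0.86 in ES cells and at 3.65 in MEF (22.9-fold lower). Zyx, of focal adhesions, was at -0.07 in ES cells and at 4.27 in MEF (20.3-fold lower), and Acta2, smooth muscle actin, was at 2.20 in ES cells and at 5.03 in MEF (7.11-fold lower) with 5 probes at -4.51, -2.83, -2.74, -2.35 or below and 2.88. Vim, the intermediate filament of mesenchyme, was at 2.96 in ES cells and at 4.84 in MEF (3.68-fold lower). Des, the filament of muscle, was the 1 member on the other side, at -0.53 in ES cells and at -3.21 in MEF (6.43-fold higher).

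The CArG box, CC and GG around a run of A or T and the site of serum response factor, was found in 7 of 39 promoters of this list (17.9%), against 1.41% of promoters of genes above background and 1.57% of all promoters. Neither this motif nor the E-box or interferon element can lie within another of them. The stretches around it follow for 4 genes, with the box in capitals, starting 161, 56, 227 and 73 bases before the gene start.
Myl9 promoter, chr2:156775278-156775337, + strand: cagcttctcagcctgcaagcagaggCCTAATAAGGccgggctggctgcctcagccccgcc
Cnn2 promoter, chr10:79988519-79988578, + strand: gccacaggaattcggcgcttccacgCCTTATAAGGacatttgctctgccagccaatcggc
Vcl promoter, chr14:20929148-20929205, + strand: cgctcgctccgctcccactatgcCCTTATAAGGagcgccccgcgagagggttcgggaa
Acta1 promoter, chr8:123894814-123894873, - strand: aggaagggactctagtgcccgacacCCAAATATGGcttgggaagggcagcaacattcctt

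Several lists of general cell function had most of their members within 2-fold, with medians that moved with the scaling. Ribosomal protein genes stood 4 higher (2 under all 4 scalings) and 22 lower (12) of 82, with a median of -0.55. After quantile normalisation the median was -0.06, and 14 of the genes had no fold. The part of the lower ES ceiling in these differences was not tested. Rpl6 was at -0.45 in ES cells and at 2.67 in MEF (8.71-fold lower) on both probes in the same direction. Proteasome genes had a median of -0.02, which was 0.45 after quantile normalisation, with Psmb11, the thymus subunit, at 3.70 in ES cells and at -1.64 in MEF (40.5-fold higher). Mitochondrial ribosomal genes had a median of 0.31. Genes of the unfolded protein response and secretion differed from these and stood 4 higher (3 under all 4 scalings) and 16 lower (11) of 37, with a median of -0.86, with Ddit3, the CHOP factor, at -2.07 in ES cells and at 1.65 in MEF (13.2-fold lower).

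Olfactory receptors, sensory receptors that neither cell is known to use, had probes from dim to saturated. Of 474 above background, 163 were at least 2-fold higher in ES cells and 57 at least 2-fold lower, a share of 34.4% and 12.03%, and the median difference was 0.71, or -0.13 after quantile normalisation. Olfr1148 was at 4.08, saturated, in ES cells and at -2.61 in MEF (at least 104-fold higher), and Olfr539 was not well above background in ES cells and at 0.99 in MEF (at least 69.6-fold lower). Under all 4 scalings 71 and 55 remained.

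Different probes of a gene were compared for all 3824 genes past 2-fold with at least 1 further probe above background. In 44.1% (95% Wilson interval 42.5% to 45.6%, counting error only) every other probe lay past 2-fold the same way, in 38.0% another probe lay within 2-fold or had no fold, and in 17.9% at least 1 lay past 2-fold the opposite way. Genes higher in ES cells had 53.7% in full agreement and 10.4% with an opposite probe, against 35.0% and 25% for genes lower in ES cells. The direction of a gene with a single probe thus has no such check.

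Agreement differed by class of gene. Full agreement was found for 55.6% of 81 metabolic genes, 48.1% of 106 secreted proteins, 44.7% of 150 transcription factors, 44.1% of 170 surface proteins and 40.2% of 97 chromatin genes. An opposite probe was found for 12.3% of metabolic genes, 11.3% of secreted proteins, 16% of transcription factors, 18.2% of surface proteins and 22.7% of chromatin genes. Chromatin genes, such as Bmi1, had the highest share with an opposite probe among these 5 classes, and the difference between classes was not tested.

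**Figure D5:**
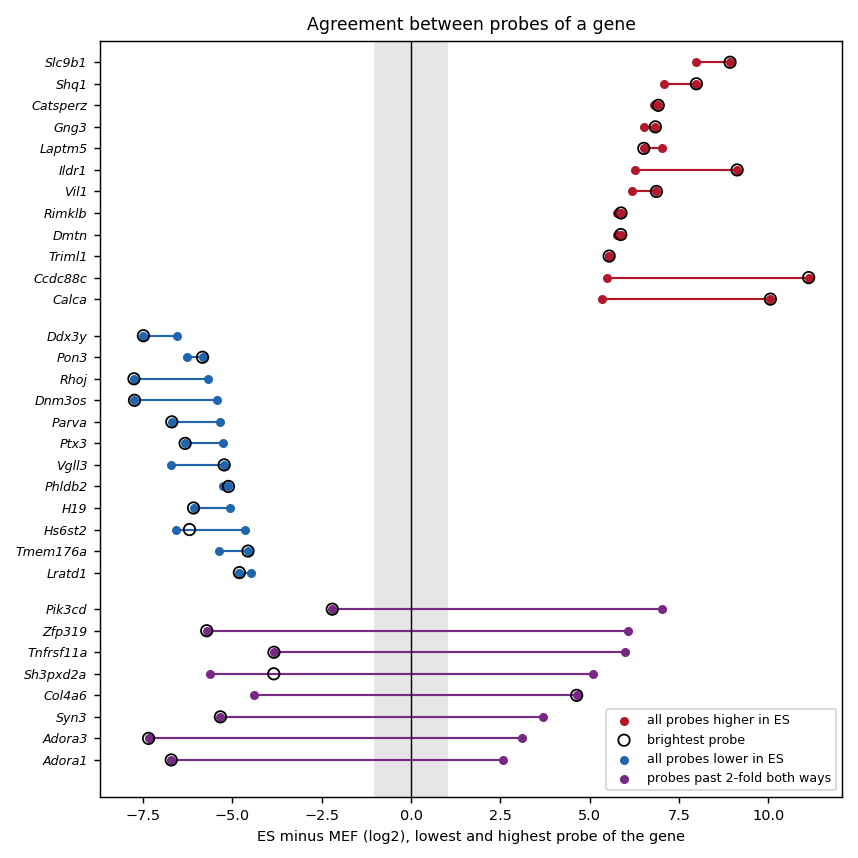
Difference between ES cells and MEF (log2, x axis) on the lowest and the highest probe of each gene (filled points joined by a line, at the bound where only a bound exists), with the brightest probe as an open circle, for 12 genes whose probes were all higher in ES cells (red), 12 whose probes were all lower (blue) and 8 whose probes lay past 2-fold both ways (purple). The grey band marks differences under 2-fold. The probes of Ddx3y lie at -7.49 and -6.55, while the probes of Pik3cd lie at -2.21 and 7.02.

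Disagreement was counted among probes well above background on both arrays. Pik3cd, a catalytic subunit of PI3 kinase in leukocytes, had probes with differences of -2.21 and 7.02. Adora3, an adenosine receptor, had probes at 3.10 and -7.35. Tnfrsf11a, the RANK receptor, had probes at 6.0 and -3.84. Of Col4a6, a basement membrane collagen, one probe had 4.64 and another -4.40. Sh3pxd2a, a scaffold of podosomes, had 5.09 on one probe and -3.84 and -5.62 on the others. In all, 540 of 5226 named genes with several such probes had a probe past 2-fold each way. Their first 30 bases are shown for the probes of Pik3cd and Adora3, since no single direction can be given for those genes.
Pik3cd, difference 7.02: tgtgcaaccttgacccaacaggtaaagaca
Pik3cd, difference -2.21: tccactctgagatgcacgtaccatcagtgg
Adora3, difference 3.10: gggcaggatgtctgttatgcaaggttctga
Adora3, difference -7.35: aatagcagcactcttttatgccacttccgt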

How the data were processed

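RNA of ES cells and MEF was read on 1 Agilent array each. The deposited scanner files hold spot intensity, read per the file headers by Agilent's Feature Extraction software (10.7.3.1 on the ES array, 9.5.3.1 on the MEF array), with probe positions on mm8 and mm7. The processed intensity used here was already background-subtracted by that software, per the file headers, and the deposited value table holds the same intensity within 0.5%.

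After removal of control spots and flagged outliers, repeat spots of 1 probe were reduced to their mean, and log2 was taken relative to the array's 75th percentile over non-control spots. This signal was 3160.1 on the ES array and 1877 on the MEF array, with medians of 470 and 190. The number of arrays limits precision. Probes were named through RefSeq accessions (22951), symbols (6659), older symbols (3109) or the file's own name (8455), and the brightest probe stands for a gene.

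A 2-fold difference is a description, with no test. For each of 75 lists, up to 4 members with the widest difference in the list's main direction and 2 in the other are named, with 12 genes a side outside the lists whose probes agree and 8 whose probes disagree; other members were chosen after their values were seen, and a few genes are not reported here. The members and lists were chosen with earlier results of these data known. List counts use genes above background, and medians take bounds at their value. Alternatives were quantile and median scaling, normexp (offset 50) on median signals with limma 3.58.1 in R 4.3.3, the deposited value table, other filters, the median over probes and a 4-fold threshold. Python 3.11.15 with numpy 2.4.6 and pandas 2.3.3 was used. The steps were tested on simulated data.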

Additional observations from a re-analysis of the deposited data

How the results depend on the processing

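With 1 array a side, no result has a replicate error, and no paired analysis was possible because each group has a single sample. Slide, scan and software differ with the cell type. Probes near background or at saturation give bounds only. Against 7235 genes higher and 5006 lower in ES cells, the counts were 12200 and 5765 with no filter on dim probes, 4305 and 2490 at 4-fold, 5500 and 7274 with median scaling, 6686 and 5431 with quantile normalisation, and 5881 and 5055 with normexp. A total of 4531 higher genes and 4376 lower genes held under all 4 scalings, a criterion added after the data were seen. The share of genes past 2-fold whose other probes agreed was 44.1%, and it was 41.9% with median scaling, 39.6% with normexp, 48.1% with no filter and 38.0% at 4-fold. Counts on the deposited value table, with flagged spots kept, on genes above background on both arrays and with the median over probes lay within 1.5 times those reported. Taking the median over probes turned the sign of 12 of 458 named genes, to 0.16 for Adora1, 0.43 for Cdk6, 0.15 for Celf2, 1.82 for Dazl, -0.36 for Dctd, -0.70 for Mcam, 1.61 for Pax6, 2.41 for Pik3cd, 0.051 for Rpl11, 0.91 for Syn3, 1.08 for Tnfrsf11a and -0.69 for Xist. Where another probe became the brightest, Cdh11 turned to 1.53 with quantile normalisation and 1.40 with normexp, Pax6 to 3.05 with normexp, and Pcdha6 to 0.43 with quantile normalisation. Restricting to probes above background on both arrays gave 0.86 for Pcdha6 and 0.47 for Fgf14. Median scaling turned no named gene.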

Other observations

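Outside the lists, 4950 named genes had at least 2 probes above background and a fold on every such probe. Of them, 783 had all of these probes past 2-fold higher in ES cells and 501 past 2-fold lower. Genes with a probe that gave no fold were left out of this count. The widest on the ES side, ranked by the smaller of their probe differences, began with Slc9b1, a sodium-proton exchanger relative, with differences between 7.98 and 8.93 over 3 probes. Shq1, which assembles box H/ACA particles, had 7.08 and 7.99. Catsperz, of the sperm calcium channel, had 6.82 and 6.92, and Vil1, the villin of epithelial microvilli, 6.19 and 6.87. Laptm5, a lysosomal protein known from blood cells, had 6.52 and 7.04 on the ES side, opposite to the myeloid markers above.

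On the MEF side, Dnm3os, an RNA that hosts microRNAs of mesenchyme, had probe differences of -5.42 and -7.74. Parva, of focal adhesions, had -5.35 and -6.70, and Ptx3, a soluble pattern recognition protein, -5.26 and -6.33. H19, the imprinted RNA next to Igf2, had -5.08 and -6.09, and Igf2 had -6.21 and -6.06 on its probes. H19 and Igf2 are expressed from opposite parental alleles, and both were lower in ES cells.

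Genes of the Y chromosome, chosen after their values were seen, stood on the MEF side. Ddx3y, an RNA helicase, was not well above background in ES cells on either probe and was at 2.36 and 1.41 in MEF. Kdm5d, a histone demethylase, was at -4.07 in ES cells and 1.37 in MEF, a difference of -5.44. Eif2s3y, a translation factor, was not well above background in ES cells and was at 0.84 in MEF (a difference of -5.97 or below). A Uty probe was not well above background in ES cells and was at 0.09 in MEF, and the other was at -6.10 in MEF and gave no fold. Zfy1 and Zfy2 were not well above background in ES cells and were at -5.10 and -6.10 in MEF. The 4 Xist probes disagreed.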
